A study of Sus scrofa with 9 samples.

Results

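The genes described here are the growth factors, receptor kinases and guidance genes of pig esophagus, measured in gland tissue, squamous tissue and gland-derived spheroids. They were chosen by a rule on gene symbols, with earlier results of these data known. The rule took fibroblast growth factors (FGF) with their receptors and binding protein, the ERBB, MET, IGF, PDGF, VEGF and HGF families, Eph receptors and ephrins, semaphorins, plexins and neuropilin, neuregulins, Slits and Robos, and the collagen receptors DDR1 and DDR2. The rule found 100 of 12217 genes that have a probe set with a single symbol. No filter on low values was applied, so all 100 were tested. Grouped by name, they comprised 11 receptor tyrosine kinases outside the Eph family, 28 growth factors, 11 binding proteins and activators, 10 Eph receptors, 8 ephrins, 15 semaphorins, 7 genes of plexins and neuropilin, and 6 Slits and Robos. The other 4 matched by symbol only: FGFR1OP and FGFR1OP2, IGF2BP2, an RNA-binding protein, and NRGN, the neuronal protein neurogranin. EGFR, ERBB3, PDGFRA, NRP2, PLXNB2 and AXL are not analysed here.

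RNA levels came from 9 Affymetrix PorGene 1.0 ST arrays, 3 in each of 3 groups. Esophageal submucosal glands (ESMG) and the squamous tissue that overlies them came from control pigs 37, 39 and 40, each animal giving both tissues; the sources used here state no strain, age or sex. The spheroids were grown in vitro from ESMG of animals labelled pig 1, 2 and 3, whose relation to the other pigs is not given, and represent only the cells that grew in that culture. Their matrix was Matrigel with a lowered growth factor content, and the medium above it was Advanced DMEM/F12 with B27, N2, 10 mM HEPES and 50 ng/ml of recombinant human epidermal growth factor (EGF). ESMG and squamous samples were thus intact tissue and the spheroids a culture under added EGF, with no culture without EGF and no uncultured gland cells among the 9 arrays. RNA was isolated with a different kit from spheroids than from tissue, so kit and culture cannot be told apart.

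Receptor tyrosine kinases are cell-surface enzymes that bind a growth factor outside the cell and pass the signal to the RAS-MAP kinase and PI3 kinase pathways inside it. In epithelial organs the ligands are often made by the stroma (FGF7, FGF10, HGF and IGF1 by fibroblasts) and the receptors by the epithelium (FGFR2, MET and the ERBB family), so that signals cross between the layers. Guidance genes, first studied in growing axons, work in epithelia by contact and at short range: ephrins on a cell bind Eph receptors on its neighbour, semaphorins bind plexins and neuropilins, and Slits bind Robos.

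Values are log2 RMA levels, on which a difference of 1 is 2-fold, and a level is compared only with the same gene's level in other samples. A gene was called when the limma test, adjusted by Benjamini-Hochberg over all 12217 genes, gave a p under 0.05 and the difference was at least 2-fold. For arrays, the number of arrays limits precision, here 3 per group. Array medians lay between 6.84 and 7.04. They were 6.84 to 6.90 on the spheroid arrays and 6.96 to 7.04 on the tissue arrays. Upper quartiles were 8.45 to 8.52 on spheroid arrays and 8.31 to 8.42 on tissue arrays, and lower quartiles were lowest in spheroids. Limma's array weights were lowest for the ESMG array of pig 40 (0.373) and the squamous array of pig 39 (0.392). The highest weight was that of the spheroid array of pig 1 (8.24). Cell type markers differed between groups. The summed level of 10 fibroblast markers (as log2 of the summed linear values) was 14.98 to 15.35 in ESMG, 15.04 to 15.30 in squamous tissue and 11.15 to 12 in spheroids, and 9 of the 10 were called lower in spheroids against either tissue. For 6 smooth muscle markers the sums were 14.09 to 14.67, 14.80 to 15.08 and 10.44 to 10.94, with all 6 called lower in spheroids, and for 7 endothelial markers they were 11.30 to 11.42, 11.22 to 11.46 and 9.16 to 9.48, with 5 and 6 called lower. Leukocyte markers (7) summed to 10.73 to 12.10, 10.17 to 10.89 and 10.36 to 10.62; 3 were called lower in spheroids than in ESMG, and against squamous tissue 2 were lower and 2 higher. Sums of 5 nerve and glia markers were 8.71 to 8.98, 8.77 to 8.87 and 8.41 to 8.83, with 2 called lower and 1 higher in spheroids against either tissue. Epithelial markers (9) summed to 14.36 to 14.51, 14.01 to 14.13 and 14.86 to 15.09. Of these, 1 was called higher and none lower in spheroids than in ESMG, and 4 higher and none lower than in squamous tissue. KRT8, a keratin of simple and glandular epithelium, had group means of 11.20 in ESMG, 8.34 in squamous tissue and 11.47 in spheroids. Those of the keratin KRT5 were 12.85, 13.29 and 13.75, so it did not follow KRT8. RMA levels have no 0, so no marker can be called absent.

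Across all roles, 35 of the 100 genes were called in at least 1 of the 3 comparisons and 65 in none. The share of all genes called in at least 1 comparison was not counted, so 35 cannot be read as many or few. By comparison, 3.0% of members were called between tissues, 32.0% between spheroids and ESMG and 27.0% between spheroids and squamous tissue. The shares of all genes were 3.06%, 16.9% and 16.7%. Of the 65 members called nowhere, 26 had all 9 arrays under the lowest array median, so their levels lay in the dim part of the arrays. The share of such dim genes among all genes was not counted either. All 9 arrays were that low for 11 of the 18 numbered FGF genes, counted by symbol and not all ligands of FGF receptors, and 15 of the 18 were called nowhere. A missing call among them is therefore not a sign that the gene is off or equal.

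**Figure D1:**
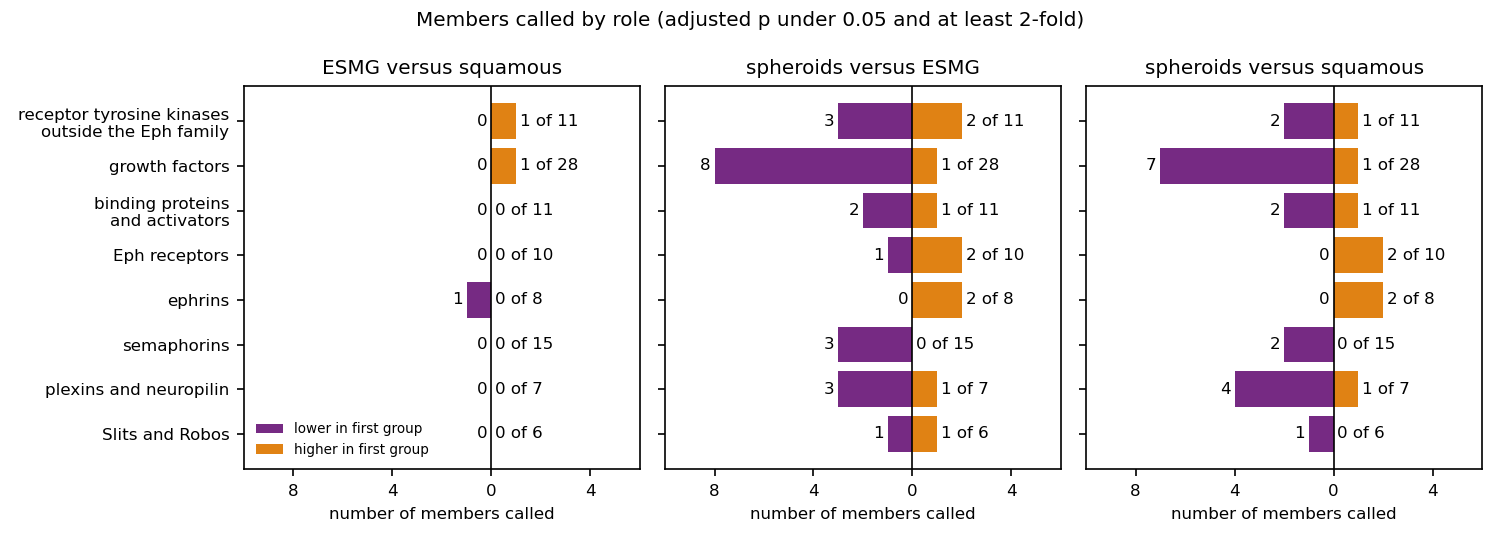
Number of members called in each role, with members lower in the first-named group to the left of 0 and members higher to the right; the text at the right gives the higher count out of the members measured. Between tissues 3 genes were called (3.0% of members, beside 3.06% of all genes). In spheroids 8 of 28 growth factors were lower and 1 higher than in ESMG (32.1% called, beside 16.9%).

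Between gland and squamous tissue 3 of these genes were called. ERBB4, a receptor for neuregulins and other EGF-family ligands, was 2.31-fold higher in ESMG, FGF10, the stromal ligand of FGFR2, was 2.12-fold higher, and the ephrin EFNA3 was 2.05-fold lower. These were the only calls, 2 higher and 1 lower of 100, at a background over all genes of 3.06% called, 2.65% higher and 0.409% lower. The share of members called, 3.0%, was near that background. The median log2 difference was -0.13 over the members and -0.06 over all genes.

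ERBB4 stood at 9.09, 9.82 and 8.87 in the ESMG arrays of pigs 37, 39 and 40 and at 7.93, 8.10 and 8.13 in their squamous arrays. The groups did not overlap, and ESMG was higher within each pig, by 1.17, 1.72 and 0.74. The log2 difference was 1.21 (SE 0.21, adjusted p = 0.00554), and the other probe set of ERBB4 gave 2.17 (SE 0.31, adjusted p = 0.00166). In spheroids the gene was lower than in either tissue, at 7.25, 7.19 and 7.09, which places the groups in the order ESMG, squamous tissue, spheroids. Spheroids fell by 2.08 below ESMG (SE 0.21, adjusted p = 1.41e-05). Against squamous tissue the difference was -0.87 (SE 0.21, adjusted p = 0.00558), under the 2-fold minimum.

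FGF10 was at 6.28, 7.19 and 6.5 in ESMG and at 5.67, 5.73 and 5.33 in squamous tissue, again without overlap and with ESMG higher by 0.61, 1.47 and 1.17 within the pigs. Its log2 difference was 1.08 (SE 0.22, adjusted p = 0.0147). EFNA3, a membrane-anchored ligand of EphA receptors, lay at 8.35, 8.51 and 9.20 in ESMG and at 9.71, 9.83 and 9.63 in squamous tissue, the array of pig 40 being the closest to the squamous ones. Its difference was -1.04 (SE 0.22, adjusted p = 0.0186). Further differences of 0.8 or more in size did not pass the test: EPHA7 at 0.94 (adjusted p = 0.0727), SEMA3D at 0.89 (adjusted p = 0.0794), FGF2 at 0.80 (adjusted p = 0.213), EPHA1 at -0.82 (adjusted p = 0.0508) and PLXNA4 at -0.86 (adjusted p = 0.101). SEMA3D and EPHA1 are named here after their values were seen.

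All 3 tissue calls depended on single arrays. Without the ESMG array of pig 39 none remained: ERBB4 was at 0.93 and FGF10 at 0.82 (adjusted p = 0.00751 and 0.0416, under the fold minimum), and EFNA3 at -0.95 (adjusted p = 0.0804); in that fit limma called no member at 2-fold. FGF10 also lost its call when the squamous sample of pig 40 was left out (adjusted p = 0.0686), and EFNA3 without any single tissue array except the ESMG array of pig 40 (adjusted p from 0.0533 to 0.0823). Without that array of pig 40, 6 members were called, the further 3 being EPHA1, PLXNA4 and SEMA3D. With pig as a block, fixed or random, the same 3 genes were called as without it. The consensus correlation of the random block was -0.149, so that fit held no positive pairing by pig to account for. In this comparison the epithelial markers KRT8, KRT18, KRT19 and EPCAM and the leukocyte marker LCP1 were also higher in ESMG, and the smooth muscle markers PLN and SYNPO2 lower; their part in these results was not tested. In such bulk samples, fewer cells of a type and less RNA per cell cannot be told apart.

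For most other receptors the intervals were narrow enough to limit the size of any tissue difference. IGF1R differed by -0.02 (95% confidence interval -0.31 to 0.27), IGF2R by 0.01 (-0.24 to 0.27), EPHA2 by -0.10 (-0.45 to 0.25), ERBB2 by -0.29 (-0.70 to 0.12) and EPHB4 by -0.26 (-0.73 to 0.20). MET was at -0.50 (-0.93 to -0.08; adjusted p = 0.181), FGFR2 at -0.49 (-0.95 to -0.03) and DDR1 at 0.49 (0.14 to 0.84; adjusted p = 0.110). FGFR3, with a difference of -0.64 (-0.99 to -0.28), had an adjusted p of 0.0432 but missed the 2-fold minimum.

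Spheroids differed from tissue in more genes, members and all genes alike. Of the 100 genes, 32 were called between spheroids and ESMG, 11 higher and 21 lower, beside a background of 16.9% of all genes (7.99% higher and 8.91% lower). Against squamous tissue 27 were called, 9 higher and 18 lower, beside 16.7% (8.61% higher and 8.05% lower). The members were chosen with earlier results of these data known, so these shares only describe them. The median over the members was 0.04 against ESMG and -0.08 against squamous tissue, while the medians of all genes were 0.09 and 0.03. These comparisons share the spheroid arrays, so their values are given side by side and do not support each other.

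Of the 28 growth factors, 8 were lower and 1 higher than in ESMG (32.1% called, beside 16.9% of all genes). Against squamous tissue 7 were lower and 1 higher (28.6%, beside 16.7%). PDGFD had the largest fall of all members in each of these comparisons. PDGFD, a ligand of the PDGF receptor beta, was at 9.03, 9.18 and 9.31 in ESMG, at 8.63, 8.89 and 9.30 in squamous tissue and at 6.06, 6.14 and 5.72 in spheroids. The spheroid arrays lay far under all 6 tissue arrays: PDGFD was 9.20-fold lower than in ESMG (log2 difference -3.20, SE 0.19, adjusted p = 2.5e-07) and 7.82-fold lower than in squamous tissue (-2.97, SE 0.19, adjusted p = 4.09e-07). IGF1, the insulin-like growth factor that acts through IGF1R, was at 9.19, 9.36 and 9.29 in ESMG, at 9.0, 8.72 and 8.74 in squamous tissue and at 6.69, 7.03 and 6.79 in spheroids. It fell by 2.44 (SE 0.14, adjusted p = 2.61e-07) against ESMG and by 1.98 (SE 0.14, adjusted p = 1.09e-06) against squamous tissue. FGF2, a heparin-bound FGF of many cell types, lay at 10.48, 10.03 and 10.05 in ESMG and at 7.91, 7.81 and 7.93 in spheroids, a fall of 2.31 (SE 0.33, adjusted p = 0.000175). Its squamous arrays spread more widely, at 9.90, 8.39 and 9.88, the low array being that of pig 39, and still did not overlap the spheroids (-1.51, SE 0.33, adjusted p = 0.00312).

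HGF, the ligand of MET, was 3.67-fold lower in spheroids than in ESMG and 3.77-fold lower than in squamous tissue. Its arrays read 6.38, 6.35 and 6.51 in ESMG, 6.17, 6.10 and 7.08 in squamous tissue and 4.75, 4.67 and 4.18 in spheroids (log2 differences -1.87 and -1.91, SE 0.24 each, adjusted p = 9.13e-05 and 7.65e-05). FGF10 reached 4.77, 5.15 and 4.84 in spheroids, 3.34-fold lower than in ESMG (-1.74, SE 0.22, adjusted p = 8.33e-05). Against squamous tissue FGF10 differed by -0.66 (adjusted p = 0.0345), under the fold minimum. VEGFD, a ligand of lymphatic vessel growth, fell by 1.38 and 1.24 (SE 0.22 each, adjusted p = 0.000326 and 0.000682). The spheroid means of HGF (4.54), FGF7 (4.86), FGF10 (4.92) and VEGFD (5.18) were below each array's lower quartile, the lowest of which was 5.36, so these folds rest on values near the floor.

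FGF7, the other stromal ligand of FGFR2, gave a different answer with each of its probe sets. The probe set that stood for it was at 7.30, 6.48 and 6.13 in ESMG, 6.65, 5.84 and 6.30 in squamous tissue and 4.74, 4.76 and 5.07 in spheroids, lower by 1.78 (SE 0.28, adjusted p = 0.000351) and 1.41 (adjusted p = 0.00176). Its other probe set had group means of 6.25, 5.53 and 5.95 and differences of -0.30 (SE 0.24, adjusted p = 0.348) and 0.43 (adjusted p = 0.186). The change of FGF7 in spheroids is therefore uncertain, in size against ESMG and in direction against squamous tissue.

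NRG4, a neuregulin that binds ERBB4, also fell. It was at 8.31, 8.83 and 8.85 in ESMG, at 8.85, 8.79 and 9.03 in squamous tissue and at 6.6, 6.40 and 5.82 in spheroids (log2 differences -2.39 and -2.62, SE 0.21 each, adjusted p = 5.83e-06 and 2.56e-06). Ligand and receptor of this pair were thus both lower in spheroids than in ESMG, the ERBB4 fall being 4.24-fold and that of NRG4 5.23-fold. The other measured neuregulin, NRG3, was between 4.42 and 5.04 on every array, near the floor.

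VEGFA, the main growth factor of blood vessels, was the only growth factor called higher in spheroids. Its arrays were at 8.91, 8.78 and 8.38 in ESMG, 8.11, 8.85 and 8.25 in squamous tissue and 10.18, 9.84 and 10.15 in spheroids. The rise was 2.58-fold against ESMG (1.37, SE 0.21, adjusted p = 0.0003) and 3.14-fold against squamous tissue (1.65, SE 0.21, adjusted p = 7.65e-05). The other probe set of VEGFA gave 4.05-fold and 3.95-fold. PDGFA and PDGFC, which unlike PDGFD are ligands of the PDGF receptor alpha, were not called: PDGFA differed by 0.20 (95% confidence interval -0.09 to 0.50) and PDGFC by 0.12 (-0.26 to 0.49) from ESMG.

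**Figure D2:**
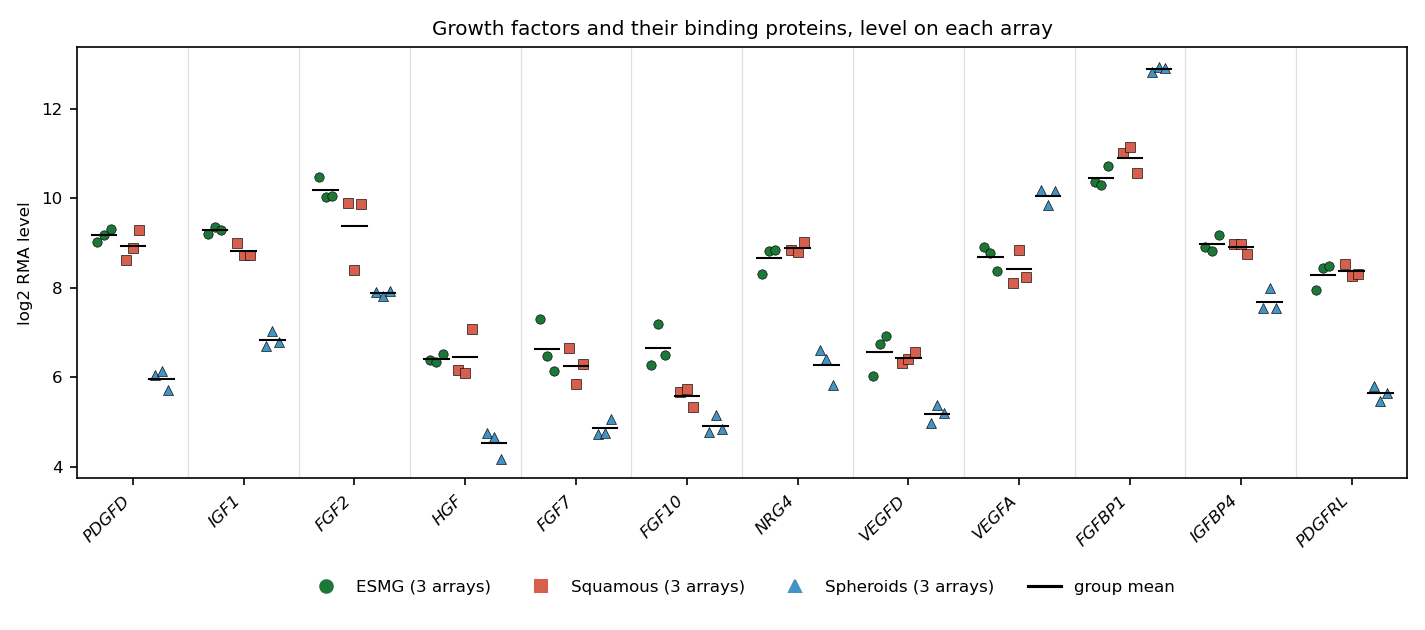
Log2 RMA level of 12 growth factors and binding proteins on each of the 9 arrays, with a bar at each group mean. In spheroids PDGFD, IGF1, FGF2, HGF, NRG4, IGFBP4 and PDGFRL lay under all tissue arrays, and VEGFA and FGFBP1 above them; for FGF7 only the probe set of highest mean is drawn.

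Among binding proteins FGFBP1, which frees FGFs from the matrix and is known from squamous and other epithelia, had the largest rise of all members. It stood at 10.36, 10.30 and 10.73 in ESMG, 11, 11.14 and 10.57 in squamous tissue and 12.81, 12.94 and 12.92 in spheroids. The spheroid arrays were tightly grouped, 5.38-fold above ESMG (2.43, SE 0.17, adjusted p = 1.15e-06) and 3.97-fold above squamous tissue (1.99, SE 0.17, adjusted p = 4.43e-06). PDGFRL, a secreted protein resembling a PDGF receptor, went from 7.96, 8.43 and 8.48 in ESMG to 5.81, 5.47 and 5.65 in spheroids, a fall of 2.65 (SE 0.17, adjusted p = 4.75e-07). IGFBP4, an inhibitory carrier of IGFs, fell by 1.27 against ESMG and by 1.21 against squamous tissue (SE 0.16 each, adjusted p = 8.53e-05 and 0.000121). Other IGF carriers did not follow it: IGFBP3 differed by 0.83 (adjusted p = 0.00153) and IGFBP6 by 0.56 (adjusted p = 0.0288) from ESMG, both positive and under 2-fold, and IGFBP7 by 0.30 (95% confidence interval -0.12 to 0.73). These 3 were picked out after their values were seen.

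Of the 11 receptor tyrosine kinases outside the Eph family, 2 were higher, 3 lower and 6 not called against ESMG. Against squamous tissue 1 was higher, 2 lower and 8 not called. The shares called were 45.5% and 27.3%, beside 16.9% and 16.7% of all genes, and rest on few genes. PDGFRB, the PDGF receptor of pericytes and fibroblasts, was at 8.40, 8.06 and 8.39 in ESMG, 8.56, 7.88 and 8.0 in squamous tissue and 6.70, 6.30 and 5.96 in spheroids, lower by 1.96 and 1.83 (SE 0.22 each, adjusted p = 3.3e-05 and 5.43e-05). FGFR2, the epithelial receptor for FGF7 and FGF10, was at 8.29, 8.87 and 8.88, then 9.07, 9.15 and 9.30, then 7.35, 7.89 and 7.21 in the same order of groups. It fell 2.29-fold against ESMG (-1.20, SE 0.21, adjusted p = 0.000695) and 3.22-fold against squamous tissue (-1.69, SE 0.21, adjusted p = 5.96e-05), and its other probe set gave -1.06 and -1.93, called in each case. FGFR2 thus fell together with its ligand FGF10 in the comparison with ESMG.

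MET, the HGF receptor, and DDR1, the collagen receptor of epithelial cells, were called higher in spheroids than in ESMG. MET lay at 9.73, 10.06 and 9.97 in ESMG, 10.43, 10.38 and 10.46 in squamous tissue and 11.38, 10.81 and 11.63 in spheroids, a 2.56-fold rise over ESMG (1.36, SE 0.19, adjusted p = 0.000182). Against squamous tissue the difference was 0.85 (SE 0.19, adjusted p = 0.00408), under 2-fold; without the spheroid array of pig 2 it was 1.09 and called. DDR1 stood at 8.86, 9.16 and 9.24 in ESMG, 8.35, 8.73 and 8.72 in squamous tissue and 10.29, 10.50 and 10.26 in spheroids. It was 2.40-fold above ESMG (1.26, SE 0.16, adjusted p = 7.61e-05) and 3.36-fold above squamous tissue (1.75, SE 0.16, adjusted p = 6.25e-06). DDR2, the collagen receptor of mesenchymal cells, was not called. It differed by -0.13 from ESMG (95% confidence interval -0.48 to 0.21) and by -0.39 from squamous tissue (-0.73 to -0.04). Of 10 fibroblast markers, 9 were called lower than in ESMG, among them COL1A2 (25.5-fold). THY1 was not called (-0.71, adjusted p = 0.0878).

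Other receptors were not called in spheroids in the main fit, though some differed by less than 2-fold. IGF1R was at 9.55 to 9.60 in ESMG and 9.71 to 9.76 in spheroids (0.16, 95% confidence interval -0.13 to 0.46), although its ligand IGF1 fell. ERBB2, the coreceptor of the ERBB family, differed by 0.21 (-0.20 to 0.62) from ESMG and by -0.08 (-0.49 to 0.33) from squamous tissue. FGFR1 differed by -0.72 (adjusted p = 0.0102) and FGFR3 by 0.83 (adjusted p = 0.00161) from ESMG, each under 2-fold; with array weights FGFR3 reached 1.09 and was called. IGF2R, which clears IGF2, was 0.47 above ESMG (adjusted p = 0.00686), also under the minimum.

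**Figure D3:**
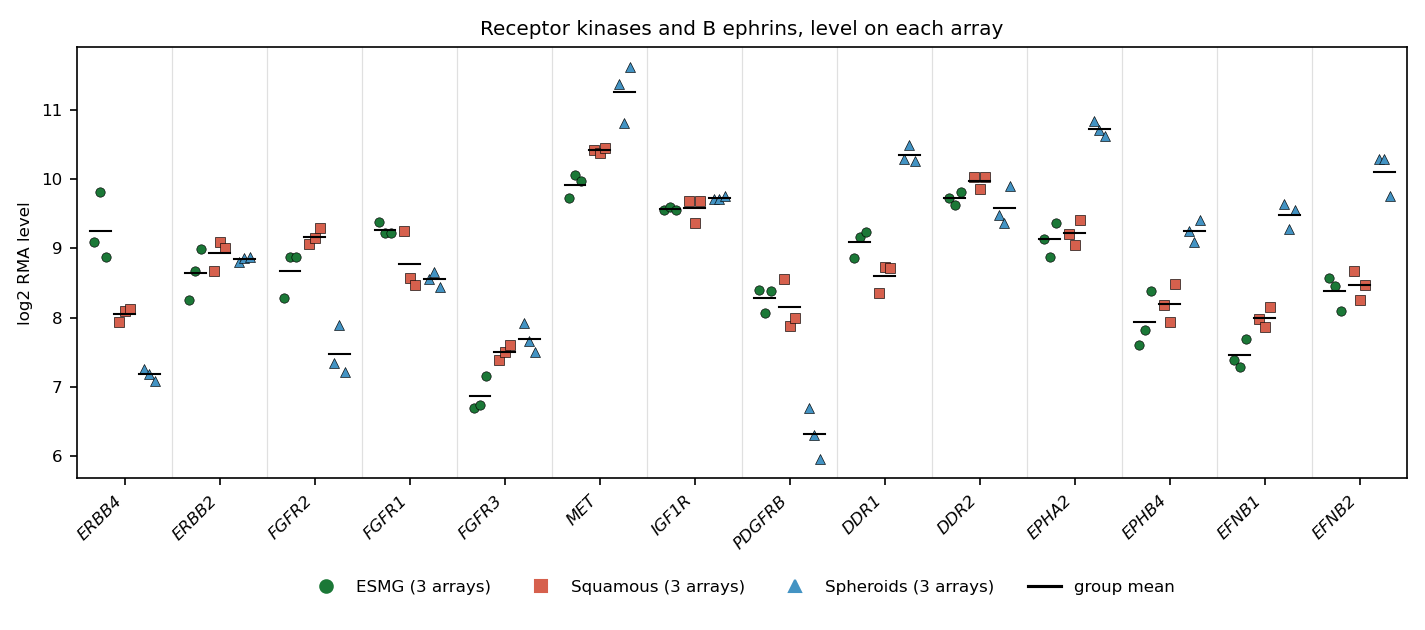
Log2 RMA level of 10 receptor kinases, 2 Eph receptors and 2 B ephrins on each array, with group means as bars. ERBB4, FGFR2 and PDGFRB were lower in spheroids, and DDR1, EPHA2, EPHB4, EFNB1 and EFNB2 were higher than all tissue arrays; IGF1R and ERBB2 lay close together.

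Eph receptors and ephrins gave few calls in spheroids. Of 10 Eph receptors 2 were higher and 1 lower than in ESMG, and 2 were higher and none lower than in squamous tissue. At limma's adjusted p under 0.05 alone, 5 further Eph receptors differed from ESMG, in both directions. Against squamous tissue 3 more did, EPHA6 and, with negative differences, EPHB2 and EPHB6, which were named after their values were seen. Of 8 ephrins 2 were higher and none lower in each comparison. A further 2 differed from ESMG and 1 from squamous tissue at that adjusted p alone. The shares called, 30% and 20% of Eph receptors and 25% of ephrins in each comparison, stood beside 16.9% and 16.7% of all genes and rest on 2 or 3 genes each. EPHA2, a receptor of epithelial cells and their junctions, was at 9.14, 8.87 and 9.37 in ESMG, 9.21, 9.05 and 9.41 in squamous tissue and 10.84, 10.72 and 10.62 in spheroids. It was 3.03-fold and 2.84-fold higher (1.60 and 1.5, SE 0.16 each, adjusted p = 1.36e-05 and 1.96e-05). Its main ligand EFNA1 did not differ detectably, by -0.11 (95% confidence interval -0.52 to 0.30) and 0.02 (-0.39 to 0.43).

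The B ephrins EFNB1 and EFNB2 and the receptor EPHB4 were called higher. The remaining B ephrin, EFNB3, differed by -0.01 from ESMG and by -0.24 from squamous tissue and was not called. The receptors EPHB2 and EPHB6 differed by -0.43 and -0.40 from ESMG and were not called either. EFNB1 rose from 7.39, 7.29 and 7.69 in ESMG to 9.64, 9.28 and 9.55 in spheroids, 4.09-fold (2.03, SE 0.16, adjusted p = 2.13e-06), with the squamous arrays between them at 7.98, 7.86 and 8.15. EFNB2, the ligand that EPHB4 binds best, was at 8.57, 8.46 and 8.09 in ESMG, 8.67, 8.26 and 8.47 in squamous tissue and 10.29, 10.29 and 9.76 in spheroids. Its rise was 3.33-fold and 3.12-fold (1.74 and 1.64, SE 0.19 each, adjusted p = 2.7e-05 and 3.9e-05). EPHB4 itself was at 7.60, 7.82 and 8.39, then 8.18, 7.93 and 8.49, then 9.26, 9.10 and 9.41, a rise of 1.32 over ESMG (SE 0.21, adjusted p = 0.000407) and of 1.06 over squamous tissue (SE 0.21, adjusted p = 0.00185). The latter fell under 2-fold after quantile normalization (0.94) and cyclic loess (0.91) and without the squamous array of pig 39 (0.92) or the spheroid array of pig 3 (0.98). EPHA7, a receptor best known from brain, was lower than in ESMG (-1.04, SE 0.27, adjusted p = 0.0096), with arrays at 7.27, 7.84 and 7.39 against 6.11, 6.35 and 6.93. That call ended with array medians set equal (-0.93), after quantile normalization (-0.94) and without the ESMG array of pig 39 (-0.87) or the spheroid array of pig 1 (-0.86) or 2 (-0.98).

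Of 15 semaphorins, 3 were lower than in ESMG (SEMA3A, SEMA3B and SEMA6A) and 2 lower than in squamous tissue (SEMA3B and SEMA4D), and limma called none higher at 2-fold. The shares called, 20.0% and 13.3%, were near the 16.9% and 16.7% of all genes. At an adjusted p under 0.05 alone, 5 and 9 further semaphorins differed, among them positive differences for SEMA3C, SEMA4F and SEMA6D in each comparison, which were named after their values were seen. SEMA3B, a secreted semaphorin, was at 8.17, 8.26 and 8.66 in ESMG, 8.76, 8.76 and 9.02 in squamous tissue and 7.10, 7.13 and 7.20 in spheroids, lower by 1.22 and 1.71 (SE 0.16 each, adjusted p = 8.07e-05 and 6.27e-06). SEMA6A, a membrane semaphorin, fell by 1.24 against ESMG (SE 0.15, adjusted p = 4.77e-05), and SEMA4D, the ligand of PLXNB1, by 1.5 against squamous tissue (SE 0.17, adjusted p = 2.7e-05). SEMA3A fell by 1.24 against ESMG (SE 0.24, adjusted p = 0.00146) to a spheroid mean of 4.88, near the floor; the difference was -0.98, under 2-fold, without the ESMG array of pig 39. SEMA4F missed the 2-fold minimum narrowly against ESMG (1.00 after rounding, SE 0.13, adjusted p = 0.000114), and SEMA3C, at 9.43, 9.06 and 9.01 in ESMG against 9.90, 9.69 and 10.34 in spheroids, differed by 0.81 (adjusted p = 0.0409).

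NRP1, the neuropilin that serves class 3 semaphorins and VEGFA as a coreceptor, had the second-largest fall among the members against ESMG. Its arrays were at 9.21, 9.15 and 9.44 in ESMG, 9.14, 8.83 and 9.04 in squamous tissue and 6.77, 6.52 and 6.20 in spheroids. It was 6.85-fold lower than in ESMG (-2.78, SE 0.17, adjusted p = 3.36e-07) and 5.69-fold lower than in squamous tissue (-2.51, SE 0.17, adjusted p = 6.47e-07). VEGFA, 1 of its ligands, was higher in the same spheroid arrays. PLXND1, a plexin of endothelium, fell by 1.42 and 1.44 (SE 0.14 each, adjusted p = 1.22e-05 and 1.01e-05) and PLXNC1, a plexin of leukocytes and other cells, by 1.64 and 1.28 (SE 0.23 each, adjusted p = 0.000173 and 0.00097).

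PLXNA2, a plexin for class 3 and class 6 semaphorins, was the only gene of the plexins and neuropilin called higher. It read 8.17, 8.09 and 8.36 in ESMG, 8.15, 8.20 and 8.27 in squamous tissue and 9.18, 9.12 and 9.56 in spheroids, a difference of 1.08 against each tissue (SE 0.15 each, adjusted p = 0.00015 and 0.000144). The groups did not overlap, but the call ended after quantile normalization (0.96 in each comparison), after cyclic loess (0.90 and 0.93) and without the spheroid array of pig 3 (0.94 in each). PLXNA4 was lower than in squamous tissue only (-1.32, SE 0.28, adjusted p = 0.00239); against ESMG, where its arrays spread from 6.75 to 8.11, the difference was -0.46 (95% confidence interval -1.06 to 0.15). Whether these differences differ from each other is the tissue comparison, in which PLXNA4 was not called (adjusted p = 0.101). PLXNB1, the SEMA4D receptor of epithelium, differed by 0.33 (-0.04 to 0.71) from ESMG and by -0.25 (-0.62 to 0.12) from squamous tissue.

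SLIT2, a secreted guidance cue, and its receptor ROBO1 moved in opposite directions against ESMG. SLIT2 was at 9.20, 9.17 and 9.70 in ESMG, 9.46, 9.47 and 9.83 in squamous tissue and 7.34, 7.40 and 7.43 in spheroids, 3.91-fold and 4.59-fold lower (-1.97 and -2.20, SE 0.17 each, adjusted p = 4.74e-06 and 1.77e-06). ROBO1 was at 7.53, 7.73 and 7.86, then 8.30, 8.03 and 8.18, then 8.91, 8.40 and 8.94, higher than in ESMG by 1.04 (SE 0.17, adjusted p = 0.000483) and differing by 0.58 from squamous tissue (adjusted p = 0.018, under 2-fold). The ROBO1 call ended after quantile normalization (0.96), cyclic loess (0.87) and without the ESMG array of pig 37 (0.95) or the spheroid array of pig 1 (0.96) or 3 (0.94). ROBO4, the Robo of endothelium, differed by -0.43 (adjusted p = 0.0675) and -0.47 (adjusted p = 0.0502).

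**Figure D4:**
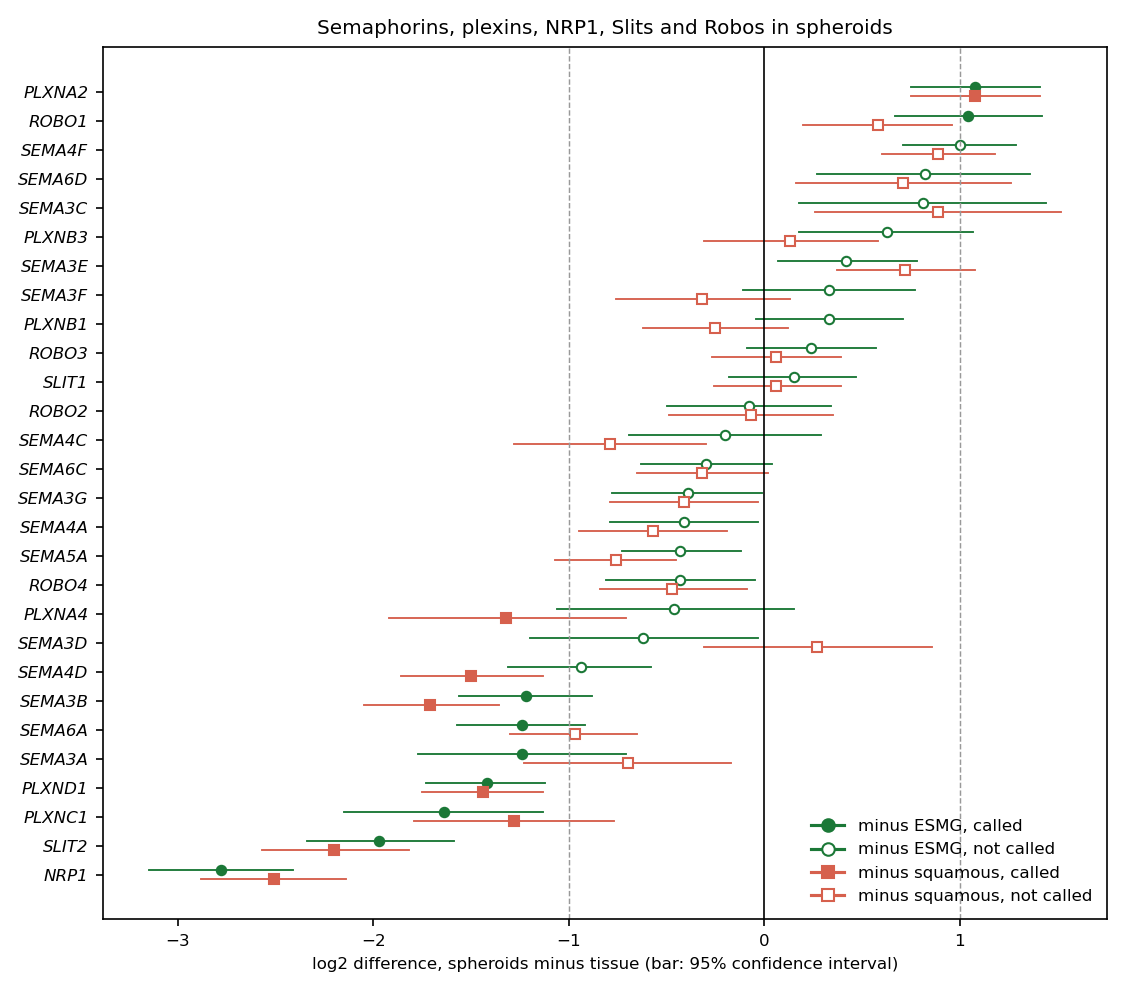
Log2 difference of 28 guidance genes in spheroids minus ESMG (circles) and minus squamous tissue (squares), with 95% confidence intervals; filled symbols were called and dashed lines mark 2-fold. Against ESMG, NRP1 (-2.78) and SLIT2 (-1.97) lay farthest below 0 and PLXNA2 (1.08) and ROBO1 (1.04) highest; against squamous tissue ROBO1 was at 0.58, under SEMA4F and SEMA3C (0.89 each).

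Of the 4 genes matched by symbol only, IGF2BP2, a protein that binds IGF2 and other mRNAs, was called, at 7.97, 8.06 and 8.01 in ESMG, 8.25, 8.06 and 8.35 in squamous tissue and 9.64, 9.63 and 9.68 in spheroids. It was 3.10-fold above ESMG (1.63, SE 0.13, adjusted p = 2.17e-06) and 2.68-fold above squamous tissue (1.42, SE 0.13, adjusted p = 5.12e-06). The other 3 were not called.

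The falls of PDGFD, IGF1, HGF, FGF10, PDGFRB, NRP1, SLIT2, PLXND1 and VEGFD stood beside the lower fibroblast, smooth muscle and endothelial markers given above. Leukocyte markers were mixed against ESMG, with 3 of 7 called lower, AIF1 at 0.82 (under 2-fold) and LCP1 at 0.01. Nerve and glia markers were called in both directions. The rises of FGFBP1, EFNB1, EFNB2, EPHA2, MET and DDR1 stood beside higher epithelial marker sums. These were 14.86 to 15.09 in spheroids and 14.36 to 14.51 in ESMG, and such sums weigh the brightest markers most. Against ESMG, KRT19 was called higher (1.87) and the other 8 of 9 epithelial markers were not called. Those 8 ranged from -0.77 for EHF to 0.90 for KRT5. FGFR2, ERBB4 and NRG4 were called lower in spheroids than in ESMG. The part of cell makeup in these results was not tested.

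Genes around the members were counted from lists of the same pathways. The lists were chosen with earlier results of these data known, so their shares only describe them. The EGF-family ligands outside the neuregulins were higher in 4 of 5 against ESMG and 3 of 5 against squamous tissue, with none lower (80.0% and 60.0% called, beside 16.9% and 16.7% of all genes; median 1.51 and 1.40, against 0.09 and 0.03). They were led by AREG (66.9-fold and 47.5-fold), EREG (8.50-fold and 5.02-fold) and, against ESMG, HBEGF (2.85-fold), which bind EGFR or ERBB4. In the relay from receptor to nucleus, none of 16 genes was called against ESMG and 1 was lower against squamous tissue, the docking protein GAB1 (-1.23). At an adjusted p alone 9 of the 16 differed from ESMG, with differences between -0.88 and 0.82. Feedback genes, which damp the signal, were called in 7 of 14 against ESMG, 4 higher and 3 lower (50.0%, beside 16.9% of all genes), and in 6 of 14 against squamous tissue, 3 higher and 3 lower (42.9%, beside 16.7%). The MAP kinase phosphatases DUSP4 (2.21) and DUSP7 (2.02) rose against ESMG, while LRIG1 (-2.61), which promotes breakdown of ERBB receptors, fell.

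Among 19 other receptor tyrosine kinases, 9 were lower and 1 higher than in ESMG (median -0.68; 52.6% called, beside 16.9% of all genes), and 8 lower and none higher than in squamous tissue (42.1%, beside 16.7%). KIT (-2.95), the stem cell factor receptor, MERTK (-2.94), a receptor of phagocytes, and NTRK2 (-2.43), the BDNF receptor, had the largest falls against ESMG. KIT, NTRK2 and NTRK3 were also the 3 called higher in ESMG than in squamous tissue (1.15, 1.24 and 1.16), as ERBB4 was. Of 27 further ligands, coreceptors and proteases of growth factor signalling, 7 were higher and 3 lower than in ESMG (37.0%, beside 16.9% of all genes). The urokinase PLAU (3.86), FLRT3 (2.86), a membrane partner of FGF receptors, and the syndecan SDC1 (2.03), a heparan sulfate coreceptor, led them. Against squamous tissue 10 of the 27 were higher and 3 lower (48.1%, beside 16.7%), led by PLAU (3.98), ST14 (2.09), a membrane protease that activates HGF, and SDC4 (1.85). FLRT3 was the gene of this list called in the tissue comparison, 2.27-fold lower in ESMG.

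For 6 members the array held more than 1 probe set, and these did not always give the same call. ERBB4, FGFR2 and VEGFA were called the same way by each of their probe sets in every comparison. FGF7 was called in spheroids by only 1 of its probe sets, as described. PLXNB3, a plexin of the B class, was not called by its brightest probe set (0.63 against ESMG, adjusted p = 0.028, under 2-fold) but was 3.19-fold higher than ESMG and 2.38-fold higher than squamous tissue by the other 2, which held the same values. SEMA3E, a ligand of PLXND1, differed from squamous tissue by 0.72 with its first probe set in spheroids, and by 1.66 with the other (SE 0.30, adjusted p = 0.000893). That other probe set was also called higher in ESMG than in squamous tissue (1.27, SE 0.30, adjusted p = 0.0287), its squamous mean of 4.56 being near the floor.

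**Figure D5:**
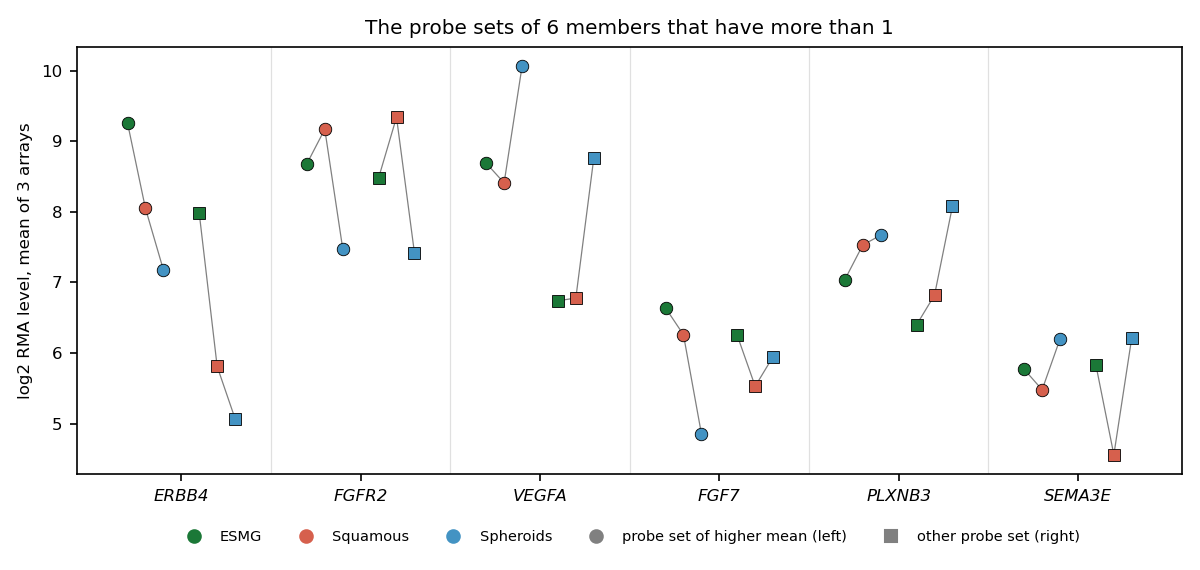
Group means, in log2 RMA level over 3 arrays, of the probe sets of 6 members, with the brighter probe set of each gene on the left and the other on the right; 1 of the pair of identical PLXNB3 probe sets is drawn. ERBB4, FGFR2 and VEGFA show the same order for spheroids against tissue, whereas FGF7 falls to 4.86 with its left probe set and stays at 5.95 with its right.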

How the data were processed

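RNA of 9 pig samples was measured on Affymetrix PorGene 1.0 ST arrays. The authors deposited log2 RMA levels. Per the submitters' processing notes, the software was Affymetrix Expression Console and Transcriptome Analysis Console 3.0, whose roles are unstated. RMA makes array distributions alike and compresses differences near the floor. The deposited spheroid arrays still had lower medians and a wider spread than the tissue arrays. No genome build is given in the sources used here, so no coordinates are printed, and 0 value columns were left unmatched.

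Of 27558 probe sets, 13157 had 1 symbol in the platform annotation, 523 several, and 13878 are unnamed here. Symbols were updated by gene number (12841 matched, 7 changed). For genes with several probe sets (881), the one of highest mean was used. A group-means model over all 9 arrays (6 residual degrees of freedom) was fitted with limma 3.58.1 in R 4.3.3 (statmod 1.5.0), tested on simulated data beforehand, and p-values were adjusted over 12217 genes; tables and plots used Python 3.11.15 (pandas 2.3.3, numpy 2.4.6, matplotlib 3.10.9). Confidence intervals are limma's, at 95% and unadjusted.

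Full statistics were given for the 8 largest rises and 8 largest falls per comparison among called members whose groups did not overlap, and for key receptors and ligands; other called members are named with values, and of each pathway or marker list up to 3 called genes of largest change. Genes named outside this rule were chosen after their values were seen. Members and lists were chosen with earlier results of these data known. ESMG and squamous arrays of the same pig are paired by the animal, as labelled. The correlation of their deviations from the group means was 0.422, -0.147 and -0.168 for pigs 37, 39 and 40. Across numbers it was 0.238 for ESMG of pig 39 with squamous tissue of pig 40. For ESMG of pig 40 with squamous tissue of pig 39 it was 0.373, and the other pairs across numbers were negative. Differences within a pig rest on the labels. Alternatives were array scaling, a filter on dim genes, probe set choice, array weights, other priors, subsets of arrays and pig as a block.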

Additional observations from a re-analysis of the deposited data

How the results depend on the processing

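Between 19 and 20 alternative settings were run per comparison. In spheroids versus ESMG the count of called members ranged from 27 to 51 and against squamous tissue from 24 to 49; the highest counts (51 with 25 higher, and 49 with 20 higher and 29 lower) came without the fold minimum. Of the 32 and 27 calls, 28 and 24 were kept in every setting in which the gene was tested; those lost in some setting were EPHA7, PLXNA2, ROBO1 and SEMA3A, and EPHB4, FGF7 and PLXNA2. No called difference changed sign among the planned settings; in a setting added after seeing the data, the other probe set of FGF7 gave 0.43 against squamous tissue. With the dimmest 1 in 3 genes left out, 68 members were tested, and FGF10, FGF7, HGF, SEMA3A and VEGFD were not among them.

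In ESMG versus squamous 3 members were called. Array weights gave 5 (2 lower), the fit without a fold minimum 2 lower, and the filter on dim genes 1 higher. Leaving out single arrays gave 0 to 6 called, 0 to 3 higher and 0 to 3 lower. With pig as a replicate block, random or fixed, 3 were called, and no call of any comparison changed. In spheroids, leaving out single arrays gave 31 to 33 calls against ESMG and 25 to 30 against squamous tissue.

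Setting array medians equal moved the median difference of all genes from 0.09 to 0.20 against ESMG and from 0.03 to 0.16 against squamous tissue, and the split of all calls against squamous tissue from 1052 higher and 983 lower to 1370 and 834; member calls were then 13 higher and 20 lower, and 11 and 18. Signal near the array floor limits the dim genes, above all most numbered FGF genes.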

Other observations

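Guidance genes outside the members, taken from a list of netrins, their receptors and relay proteins, were also read. That list too was chosen with earlier results of these data known. Of 33 measured, 6 were higher and 2 lower in spheroids than in ESMG (24.2% called, beside 16.9% of all genes), and 4 were higher and 3 lower than in squamous tissue (21.2%, beside 16.7%). NGEF, an exchange factor that acts under Eph receptors, was 4.82-fold higher than in ESMG (log2 difference 2.27, SE 0.23, adjusted p = 1.29e-05), with EPHA2 and EPHB4 higher in the same arrays. NTN4, a netrin of basement membranes, was at a mean of 7.89 in ESMG, 6.52 in squamous tissue and 10.13 in spheroids; it was called in all 3 comparisons (1.37, 2.24 and 3.61, SE 0.32 each). PAK1, a kinase under RAC that remodels actin, was 2.94-fold higher in ESMG than in squamous tissue and differed by 0.14 between spheroids and ESMG (adjusted p = 0.637). TIAM1, a RAC activator, fell by 1.40 against ESMG and by 1.98 against squamous tissue.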
